A study of Mus musculus with 2 samples.

Results

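Among the cells of the fetal mouse femur, a small set carried transcripts of Bpifb1, a gene of the BPI fold family of secreted lipid-binding proteins that is best known from airway epithelium, together with those of the cartilage collagen gene Col2a1. The set was defined by counts of unique molecular identifiers (UMIs, 1 for each captured transcript molecule): at least 2 UMIs of Bpifb1, none of the columnar chondrocyte proteoglycan gene Epyc, none of the endothelial gene Cdh5 or the blood gene Ptprc, and at most 2 UMIs in sum of the mitosis genes Top2a, Cenpf and Prc1. It held 119 of 12356 cells, 26 of 5736 in the WT library and 93 of 6620 in the Bmx-CreER Wls library. Bpifb1 and Epyc chose these cells, so their levels are given as a description, and since the rule was drawn up with these data in view, no comparison of the cells with other cells was tested.

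Both libraries were made from E18.5 femurs of C57BL/6 embryos, crushed, digested with collagenase and depleted of cells positive for Ter119, Gr-1, B220 or CD3e. One genotype was WT. The other was Bmx-CreER Wls, in which a tamoxifen-inducible Cre recombinase driven by the arterial endothelial gene Bmx deletes floxed Wls, the carrier that Wnt ligands need for secretion, after tamoxifen was given to the pregnant dams. Tamoxifen treatment of the WT embryos and the number of embryos pooled are not given in the sources used here. There was 1 library per genotype, so differences between libraries cannot be told apart from differences between genotypes, and intervals in parentheses are exact 95% intervals that cover counting error only.

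In the growth plate, chondrocytes pass from a reserve zone through columns of dividing cells to prehypertrophic and hypertrophic cells, which stop dividing, enlarge and mineralize their matrix, while a separate lining of cells at the joint surface makes the lubricant proteoglycan lubricin. Stanniocalcin 1 (Stc1), a secreted glycoprotein that acts on calcium and phosphate handling, and the ligand gene Wnt4 are known from prehypertrophic cartilage and the forming joint. Ngfr encodes the low-affinity neurotrophin receptor p75, which is best known from neurons, Schwann cells and mesenchymal progenitors.

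The gene that defines the cells, Bpifb1, lies on the forward strand of chromosome 2, 154190818 to 154220369 (mm10), amid other genes of its family. The 250 bases before a RefSeq start of Bpifb1 and of the 2 marker genes with an entry, Ngfr and Wnt4, are shown because these genes were found together in the cells. They are printed 5′ to 3′ on the strand of the gene (GRCm38.p6), with capitals for short words of the kind that SOX proteins bind, namely ACAAAG with its reverse complement CTTTGT, and the related word ACAATG with its own reverse complement CATTGT, searched without regard to overlap. RefSeq gave 2 starts of Bpifb1. The window of the first (chr2:154190568-154190817, forward strand), shown here, held 2 of these words and that of the second (chr2:154200130-154200379), not shown, held none. Neither the Ngfr window (chr11:95587699-95587948, reverse strand) nor the Wnt4 window (chr4:137277385-137277634, forward strand) held one, and 25.2% of 32851 such windows of all genes held at least 1. The Ngfr and Wnt4 windows reach into the gene spans of the GENCODE annotation given below, whose outermost starts lie further upstream. The words are matches of letters only.
Bpifb1: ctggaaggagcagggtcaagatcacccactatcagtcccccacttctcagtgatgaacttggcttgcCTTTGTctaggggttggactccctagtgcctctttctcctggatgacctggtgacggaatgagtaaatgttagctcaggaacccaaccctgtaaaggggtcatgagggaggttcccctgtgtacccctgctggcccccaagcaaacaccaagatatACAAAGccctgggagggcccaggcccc
Ngfr: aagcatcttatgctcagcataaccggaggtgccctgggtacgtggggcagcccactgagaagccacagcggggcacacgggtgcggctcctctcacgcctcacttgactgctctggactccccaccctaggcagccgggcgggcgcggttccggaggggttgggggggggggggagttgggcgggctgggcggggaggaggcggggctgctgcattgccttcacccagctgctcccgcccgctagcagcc
Wnt4: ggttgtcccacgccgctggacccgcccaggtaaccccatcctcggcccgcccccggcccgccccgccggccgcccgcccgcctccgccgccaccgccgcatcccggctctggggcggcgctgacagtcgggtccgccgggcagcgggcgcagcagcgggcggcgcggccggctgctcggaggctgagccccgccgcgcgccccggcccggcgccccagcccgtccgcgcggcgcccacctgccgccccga

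The cells had a median of 2869 UMIs (1125 to 5114) in the WT and 3757 UMIs (1007 to 8603) in the Bmx-CreER Wls library, with 77133 and 363885 UMIs in sum. Their median mitochondrial share was 3.27% and 2.77%. The libraries held 22708005 UMIs in 5998 barcodes and 24704991 UMIs in 6825 barcodes, of which 49 barcodes occurred in both, 1 of them a Bpifb1-positive cell of the Bmx-CreER Wls library. Doublets were kept, and 0 and 2 of the cells were among the 5% with the highest Scrublet doublet scores. As the comparison group served the other cartilage cells, that is cells outside the set with no Cdh5 or Ptprc UMI, the same limit on the mitosis genes, and at least 0.5% of their UMIs from Acan, Col9a1, Col9a2, Col9a3, Hapln1, Matn1 and Matn3; there were 2076 and 3477 of them, with medians of 2660 and 2682 UMIs. At this cutoff of 0.5%, 21 of 26 and 78 of 93 cells of the set passed the cartilage rule themselves. The median share of the 7 genes was 0.811% and 0.762%, against 3.92% and 3.08% in the other cartilage cells and 0% in cells with at least 2 UMIs of Ptprc or of Cdh5. Both medians of the set thus lie under 1%, the higher cutoff among the alternatives run. All 119 cells had a Col2a1 UMI, as did 29.9% of these Ptprc cells and 29.8% of these Cdh5 cells in the WT library. Of the WT cells, 10 occurred in the part of the study's cell list that was read here, and all 10 carried its chondrocyte label.

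Levels are the summed UMIs of a gene per 1000000 summed UMIs of the cell group (CPM). Bpifb1 stood at 2074 CPM (1765 to 2422) in the WT and 1951 CPM (1810.3 to 2100.1) in the Bmx-CreER Wls library, from 2 to 20 UMIs per cell (median 4) and from 2 to 30 (median 5). Other cartilage cells had 12.9 and 19.8 CPM. The set held 160 of the 334 Bpifb1 UMIs of all kept WT cells and 710 of the 1070 of all kept Bmx-CreER Wls cells. In blood cells, taken as cells with at least 2 Ptprc UMIs, 0 of 157 and 0 of 118 cells had a Bpifb1 UMI, which with a limit of 3 counts allows shares of cells with a UMI of up to 1.91% and 2.54%, at median depths of 7405 and 8063 UMIs.

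Stc1 (chromosome 14, 69029238 to 69041804) was the most abundant of the marker genes, at 7039.8 CPM (6460.0 to 7658) and 6087 CPM (5836 to 6346). Per cell it ranged from 0 to 93 UMIs with a median of 10 in the WT library, and from 0 to 100 with a median of 18 in the Bmx-CreER Wls library. Other cartilage cells had 205 and 231 CPM, so that the level in Bpifb1-positive cells was 34.4 (31.1 to 38) and 26.4 (24.9 to 27.9) times as high. An Stc1 UMI was present in 22 of 26 and 88 of 93 of the Bpifb1-positive cells, 84.6% (65.1 to 95.6) and 94.6% (87.9 to 98.2), against 15.1% and 15.6% of other cartilage cells, 28% and 28.3% of endothelial cells (at least 2 Cdh5 UMIs, at median depths of 3236 and 3542 UMIs) and 2.55% and 1.69% of blood cells. With each cell thinned to 1000 UMIs the shares were 69.2% and 92.5%, against 10.1% and 8.99% of other cartilage cells and 12% and 9.35% of endothelial cells.

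Ngfr (chromosome 11, 95568818 to 95587735) reached 869 CPM (673 to 1103) and 1132 CPM (1026 to 1247), 25.3 (19 to 33.3) and 25.6 (22.4 to 29.2) times the levels of 34.4 and 44.3 CPM in other cartilage cells. It was detected in 15 of 26 and 71 of 93 cells, with at most 15 and 21 UMIs per cell, and in no blood cell of either library. Wnt4 (chromosome 4, 137277489 to 137299726) was the sparsest marker, with 11 and 133 UMIs, 143 CPM (71.2 to 255) and 366 CPM (306 to 433). It was detected in 8 of 26 and 47 of 93 cells, against 6.5% and 5.67% of other cartilage cells, where its level was 28.3 and 31.7 CPM. The ratio of Wnt4 was 5.03 (2.47 to 9.2) and 11.5 (9.36 to 14.1), and that of the WT library came to 1.63 with each cell thinned to 1000 UMIs. After this thinning Wnt4 was detected in 1 of 26 and 27 of 93 cells, 3.85% (0.0973 to 19.6) and 29% (20.1 to 39.4), against 2.12% and 2.43% of other cartilage cells, so that at this depth no difference of the shares was detectable in the WT library. UMIs of all 3 of Stc1, Ngfr and Wnt4 occurred in 6 of 26 and 42 of 93 cells, and none of the 3 in 4 and 2 cells.

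**Figure D1:**
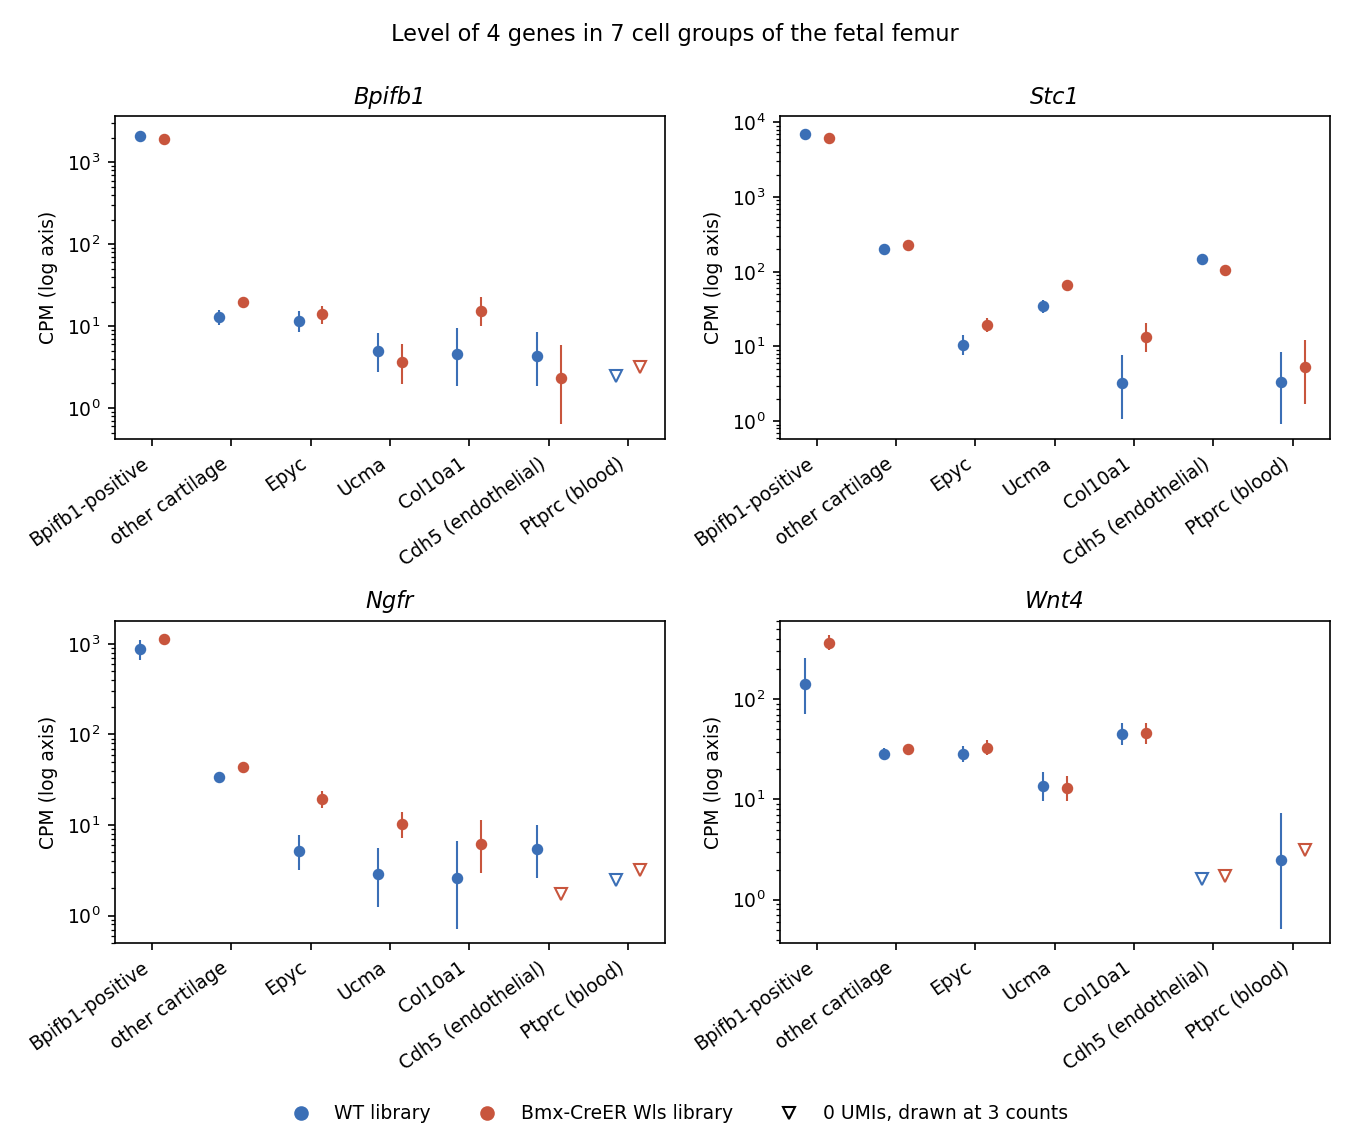
Levels of Bpifb1, Stc1, Ngfr and Wnt4 in 7 groups of cells, as CPM on a log axis, in the WT library (blue) and the Bmx-CreER Wls library (red); bars are 95% Poisson intervals and open triangles mark 0 UMIs, drawn at 3 counts. The Bpifb1-positive cells lie above every other group drawn for all 4 genes in both libraries, with Stc1 at 7039.8 and 6087 CPM.

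Cells just outside the threshold on Bpifb1 also carried Stc1, at lower levels than the cells just inside it. Of the Bpifb1-positive cells, 6 and 16 had exactly 2 Bpifb1 UMIs, and these carried 8417 and 6257 CPM of Stc1 and 7395 and 13755 CPM of Col2a1. The 21 and 41 cells that met every other condition but had 1 Bpifb1 UMI carried 3038 and 3825 CPM of Stc1 and 27259 and 26883 CPM of Col2a1. The 7 and 19 cells left out only for an Epyc UMI had 768 and 2723 CPM of Stc1 and 71911 and 40838 CPM of Col2a1. Cells with 1 Bpifb1 UMI thus had lower Stc1 and higher Col2a1 levels than those with 2, in each library, and the cells with Epyc still more Col2a1. Stc1 did not follow the Bpifb1 count throughout: the 7 WT cells with 4 to 6 Bpifb1 UMIs had 1679 CPM of Stc1 and 49.4 CPM of Ngfr, below the WT cells with 1 Bpifb1 UMI, at 3038 and 363 CPM. Abundant Stc1 was not limited to Bpifb1-positive cells: of the 104 and 208 kept cells with at least 10 Stc1 UMIs, a threshold chosen after the values were seen, 13 and 68 were in the set and 78 and 99 had no Bpifb1 UMI.

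Cartilage matrix transcripts were present in the Bpifb1-positive cells at a fraction of their level in other cartilage cells. Col2a1, the main collagen of hyaline cartilage, stood at 8505 CPM (7866 to 9181) and 8522 CPM (8225 to 8827), against 70957 and 65924 CPM in other cartilage cells and 713 and 553 CPM in blood cells. That was 0.12 (0.111 to 0.129) in the WT and 0.129 (0.125 to 0.134) in the Bmx-CreER Wls library of the level in other cartilage cells. The median cell had 16 and 22 Col2a1 UMIs, against 179 and 164. Of the 15 matrix genes listed, 13 were at least 2-fold lower in each library, none was 2-fold higher, and the median ratio was 0.122 and 0.152. Across all 6279 genes tested, those with a mean CPM of at least 20, 3.77% were at least 2-fold lower and 9.01% at least 2-fold higher in both libraries, and the median ratio was 1.21 and 1.16. These shares are the background for the counts of every gene list below. The cartilage rule of the comparison group used 7 of the 15 genes, which raises their level there by construction.

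The matrix genes did not stand at a uniform ratio. Acan, the large proteoglycan aggrecan, had ratios of 0.285 and 0.283 at 1685 and 1641 CPM, and Hapln1, the link protein that ties aggrecan to hyaluronan, 0.591 and 0.599 at 3475 and 2754 CPM, one of the 2 matrix genes that were not 2-fold lower. Matn3, the matrilin of the growth plate, stood far lower, at 3 and 21 UMIs and ratios of 0.0313 (0.00644 to 0.0914) in the WT and 0.0642 (0.0398 to 0.0983) in the Bmx-CreER Wls library. Matn1 had ratios of 0.0611 and 0.0756, Col9a1 0.122 and 0.152 and Col11a1 0.213 and 0.295, the former 0.526 with no condition on Epyc. Chad, the leucine-rich protein chondroadherin, had 0 UMIs in the WT library, at most 0.0348 of the level in other cartilage cells, and a ratio of 0.0674 in the other library. The 5 and 15 cells of the set that failed the cartilage rule kept the marker genes, with 9823 and 7572 CPM of Stc1 and 18468 and 21999.6 CPM of Igfbp5, at 2301 and 4559.7 CPM of Col2a1.

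Transcription factors of the chondrocyte lineage stood closer to the other cartilage cells than the matrix genes did, with a median ratio of 0.461 and 0.722 over the 9 tested. The WT median takes 2 factors without UMIs as 0, and is 0.52 with these at their bound. The rule of the comparison group used 7 of the 15 matrix genes and none of these factors, so that this contrast is in part by construction. Sox9, the master regulator of chondrocyte fate, was at 1621 CPM (1349 to 1931) and 1355 CPM (1238 to 1479.9), ratios of 0.788 (0.656 to 0.94) in the WT and 0.688 (0.628 to 0.753) in the Bmx-CreER Wls library, and was detected in 23 of 26 and 82 of 93 cells. Its partner Sox5 had ratios of 2.12 and 1.48, and Trps1, a repressor of the growth plate, 1.26 and 1.39. Of 9 factors tested, 1 was 2-fold lower in both libraries, Runx3, which works with Runx2 in chondrocyte maturation, with 0 UMIs in the WT and a ratio of 0.083 (0.010 to 0.301) in the Bmx-CreER Wls library. None was 2-fold higher in both, beside 3.77% lower and 9.01% higher of all genes tested.

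Of the genes that mark zones of the growth plate, 2 of 4 were lower and 1 higher in the reserve list, 4 of 5 lower and none higher in the columnar list without Epyc, which the rule sets to 0, and 4 of 8 lower and 1 higher in the hypertrophic list, beside 3.77% lower and 9.01% higher of all genes tested. In the reserve zone list, Ucma, a small secreted Gla protein, had 3 and 5 UMIs and ratios of 0.0371 (0.00764 to 0.108) in the WT and 0.0154 (0.00501 to 0.036) in the Bmx-CreER Wls library, and the Wnt antagonist Sfrp5 was also lower, while Clu (clusterin) had ratios of 7.09 and 3.06, the latter 1.9 as a mean over cells. In the columnar list the lower genes were Matn3, the sulphate donor synthase gene Papss2 at ratios of 0.171 and 0.166, Scrg1 at 0.0686 and 0.0672 and the receptor gene Fgfr3 at 0.208 and 0.087, the former 0.618 with no condition on Epyc. Mia, the other gene, stood at 0.527 and 1.3.

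The prehypertrophic list was split. Of 10 genes tested, Stc1, Wnt4 and Fgfr1 were higher, and Ihh, Pth1r, Wnt5b, Panx3 and Sgms2 were lower, beside 9.01% and 3.77% of all genes. Stc1 and Wnt4 are marker genes of the set. Ihh, the hedgehog ligand of prehypertrophic cells, had 0 and 4 UMIs in the Bpifb1-positive cells, at most 0.146 of the level in other cartilage cells in the WT library and 0.0558 (0.0152 to 0.143) in the other. Pth1r, the receptor of the PTHrP signal that restrains hypertrophy, had 2 and 4 UMIs and ratios of 0.0575 (0.00696 to 0.208) in the WT and 0.0377 (0.0103 to 0.0965) in the Bmx-CreER Wls library. Col10a1, the collagen of hypertrophic cartilage, had the lowest ratios of any tested gene with UMIs in both libraries, 0.00234 (0.000283 to 0.00844) in the WT and 0.00243 (0.000891 to 0.00529) in the Bmx-CreER Wls library, at 2 and 6 UMIs. No Bpifb1-positive cell had 5 or more Col10a1 UMIs. The other lower genes of the hypertrophic list, Ibsp, Alpl and Sp7, had no UMIs in the WT cells and 4, 1 and 1 UMIs in the Bmx-CreER Wls cells. Sp7 came to a ratio of 0.608 there with no condition on Epyc, and Ibsp to 0.539 with cells of 1 Bpifb1 UMI included. Spp1 (osteopontin, a phosphoprotein of mineralized matrix) stood apart in that list, at 739 CPM (559.7 to 957) and 1432 CPM (1311 to 1560.2) and ratios of 3.02 (2.28 to 3.94) in the WT and 8.29 (7.51 to 9.14) in the Bmx-CreER Wls library.

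Genes of the joint surface were uneven. Cilp, a matrix protein of the intermediate layer of articular cartilage, stood at 2723 CPM (2367 to 3117) and 1239 CPM (1128 to 1359) and ratios of 9.99 (8.63 to 11.5) in the WT and 5.71 (5.15 to 6.32) in the Bmx-CreER Wls library, and Sema3d at ratios of 4.6 and 2.97. Prg4, which encodes lubricin, was at 1193 and 462 CPM, ratios of 0.924 (0.744 to 1.13) in the WT and 0.309 (0.264 to 0.36) in the Bmx-CreER Wls library. It was detected in 14 of 26 and 31 of 93 cells, and 9 and 20 cells had at least 2 of its UMIs. Of the 8 genes of the list tested, Cilp and Sema3d were 2-fold higher in both libraries and none was 2-fold lower. The shares over all genes were 9.01% and 3.77%. Among Bpifb1-positive cells, Prg4 was lowest where Bpifb1 was highest: the 11 and 26 cells with 2 or 3 Bpifb1 UMIs had 2367 and 738 CPM, and the 8 and 38 cells with 7 or more had 79.4 and 344 CPM. The cells with 4 to 6 lay between, at 741 and 379 CPM, the latter within counting error of the cells with 7 or more. In the WT library, the 6 cells with exactly 2 Bpifb1 UMIs held 55 of the 75 Prg4 UMIs of the lowest bin. A single WT cell of the set had up to 25. The bins follow the count that the rule used, and the spread between cells was not tested.

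**Figure D2:**
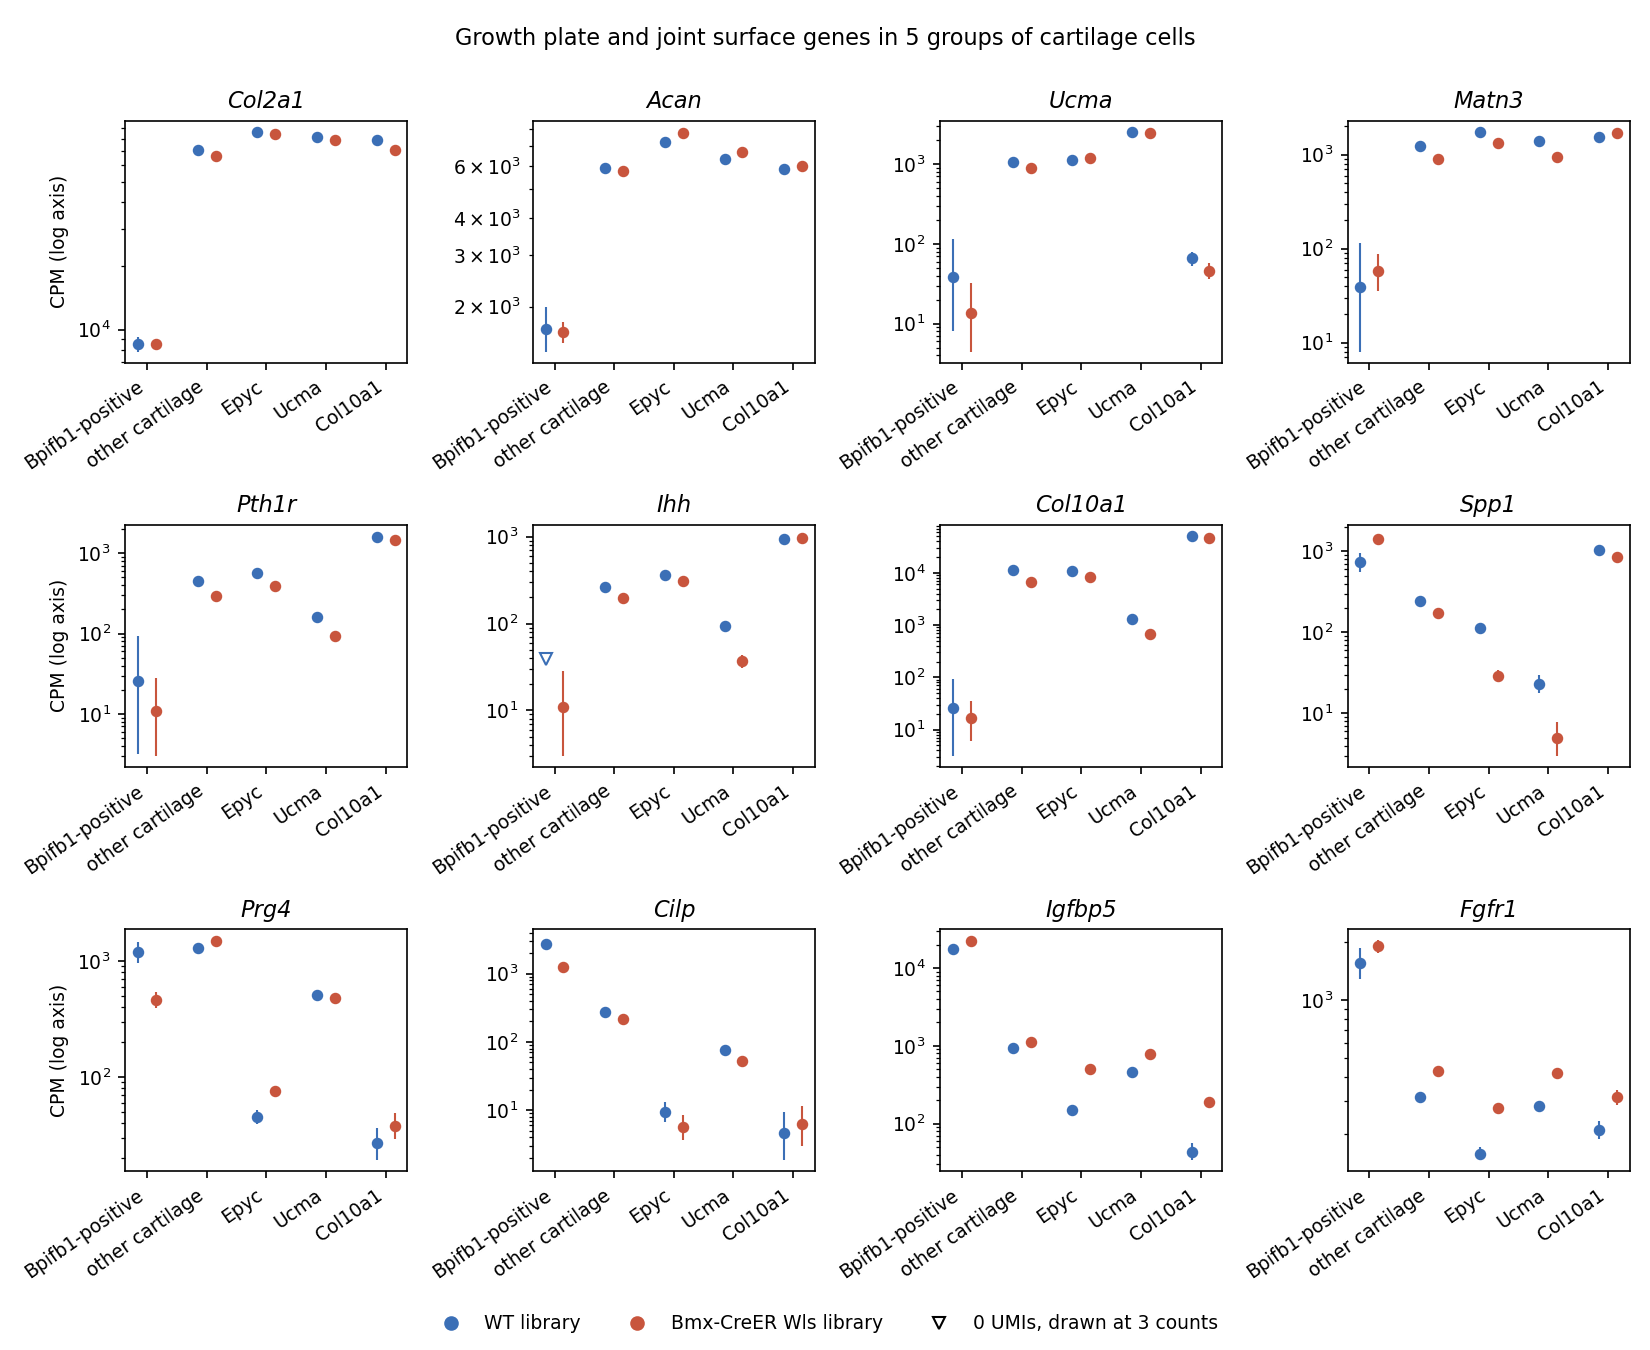
Levels of 12 growth plate, joint surface and signalling genes in Bpifb1-positive cells, other cartilage cells and the cells among these with at least 2 Epyc, 2 Ucma or 5 Col10a1 UMIs, as CPM on log axes that differ between panels; bars are 95% Poisson intervals and the open triangle marks 0 UMIs, drawn at 3 counts. Col2a1, Acan, Ucma, Matn3, Pth1r, Ihh and Col10a1 are lowest in the Bpifb1-positive cells in both libraries, counting the triangle for Ihh as a limit, and Cilp, Igfbp5 and Fgfr1 are highest there.

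Beyond the marker genes, 566 of the 6279 genes tested were at least 2-fold higher in the Bpifb1-positive cells in both libraries and 237 at least 2-fold lower. The filter on the mean CPM let a gene pass through 1 group of cells alone: 220 of the 566 higher genes, and 14 of the 15 ranked first, were under 20 CPM in the other cartilage cells of both libraries, so that their counts are a description. Likewise 78 of the 237 lower genes were under 20 CPM in the Bpifb1-positive cells of both. The median ratio over all genes lay above 1. With TMM factors, a scaling added after the data were seen that sets the trimmed mean of the ratios to 1, 341 genes were higher and 429 lower. The factors were 1.23 and 1.07 for the Bpifb1-positive cells and 0.872 in each library for the other cartilage cells, which lowers every ratio of a library alike. The 15 genes ranked first by the less extreme of their 2 ratios included Bpifb1, Ly6a, Sphkap, Lcn2, Gdf6, Hsd11b2, Itgb2, Plvap, Ntf3, Colq, Mmp3, Prss12, Cdkn2b and Ly6e.

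Several of these encode cell surface and secreted proteins. Ly6e, a GPI-anchored protein of the Ly6 family, was the most abundant, at 2878 CPM (2512 to 3283) and 3152 CPM (2972 to 3339.9) and ratios of 49.9 (42.2 to 58.9) in the WT and 30.7 (28.2 to 33.3) in the Bmx-CreER Wls library. It was detected in 19 of 26 and 89 of 93 cells, against 10.2% and 9.66% of other cartilage cells, and also in 82.7% and 84.3% of endothelial cells and in 80.3% of WT blood cells. Ly6a, the stem cell antigen Sca-1, had 34 and 152 UMIs, ratios of 106 (62.8 to 181) in the WT and 62.6 (47.1 to 83.8) in the Bmx-CreER Wls library. Only a minority of the cells carried Ly6a, 6 of 26 and 32 of 93, with up to 13 of the 34 WT UMIs in a single cell. It was also detected in 31.3% of WT endothelial cells. It belongs to a family of near-identical genes, between which reads may be divided. Lcn2 (lipocalin 2), a secreted iron-siderophore carrier, stood at 324 and 459 CPM, ratios of 119 (63 to 229) in the WT and 46.7 (36.5 to 59.99) in the Bmx-CreER Wls library. It was detected in 6 of 26 and 41 of 93 cells.

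Plvap, the protein of the diaphragms of endothelial fenestrae, had 61 and 233 UMIs, ratios of 62.8 (44.5 to 88) in the WT and 37 (30.4 to 45) in the Bmx-CreER Wls library, and was detected in 69.2% and 78.5% of the cells, against 79.96% and 84.3% of endothelial cells. With each cell thinned to 1000 UMIs, Plvap was detected in 30.8% and 45.2% of the set, against 58.0% of WT endothelial cells. The 6 endothelial check genes Cdh5, Pecam1, Kdr, Emcn, Tie1 and Tek had 0 UMIs in sum in the Bpifb1-positive cells of both libraries, where Cdh5 is 0 by the rule. Itgb2, the leukocyte integrin beta-2 chain, had 6 and 26 UMIs and ratios of 38.8 and 39.6. The 6 blood genes Ptprc, Spi1, Coro1a, Tyrobp, Laptm5 and Cd52 had 0 and 3 UMIs in sum, with Ptprc at 0 by the rule.

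Enzymes and matrix proteases were among the same genes. Hsd11b2, which inactivates glucocorticoids, had 7 and 35 UMIs, ratios of 317 (60.4 to 3127) in the WT and 41 (24 to 71) in the Bmx-CreER Wls library, where the 2076 other cartilage cells of the WT library held 2 UMIs. Mmp3 (stromelysin-1) had ratios of 50.3 and 33.9, Prss12 (neurotrypsin) 36.2 (3.45 to 221) in the WT and 33.7 (17.2 to 66.2) in the Bmx-CreER Wls library, and Colq, the collagen tail that anchors acetylcholinesterase, 49.4 and 34.1. Cdkn2b, an inhibitor of the G1 cyclin-dependent kinases, had 2 and 19 UMIs and ratios of 90.6 (6.56 to 1249) in the WT and 32.2 (16 to 65) in the Bmx-CreER Wls library. Sphkap, an anchor protein of protein kinase A, had 6 and 23 UMIs and ratios of 109 (27.6 to 450.2) in the WT and 58.4 (27.9 to 129) in the Bmx-CreER Wls library.

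The 10 genes ranked lowest were, in alphabetical order, C1qtnf3, Ccdc80, Chad, Col10a1, Epyc, Matn3, Panx3, Pcolce2, Pth1r and Ucma. Pcolce2, an enhancer of procollagen processing, had 1 and 2 UMIs, ratios of 0.0217 (0.00055 to 0.121) in the WT and 0.0124 (0.0015 to 0.0447) in the Bmx-CreER Wls library. With no condition on Epyc its WT ratio was 0.515, so that the 2-fold difference rested on leaving out the WT cells with Epyc. C1qtnf3, a secreted C1q-related protein of growth cartilage, and the channel gene Panx3 had 0 UMIs in the WT cells, at most 0.0277 and 0.0405 of the level in other cartilage cells, and ratios of 0.0555 and 0.0685 in the Bmx-CreER Wls library. Ccdc80, a secreted matrix protein, had 1 and 5 UMIs and ratios of 0.0479 (0.00121 to 0.267) in the WT and 0.0673 (0.0218 to 0.157) in the Bmx-CreER Wls library.

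**Figure D3:**
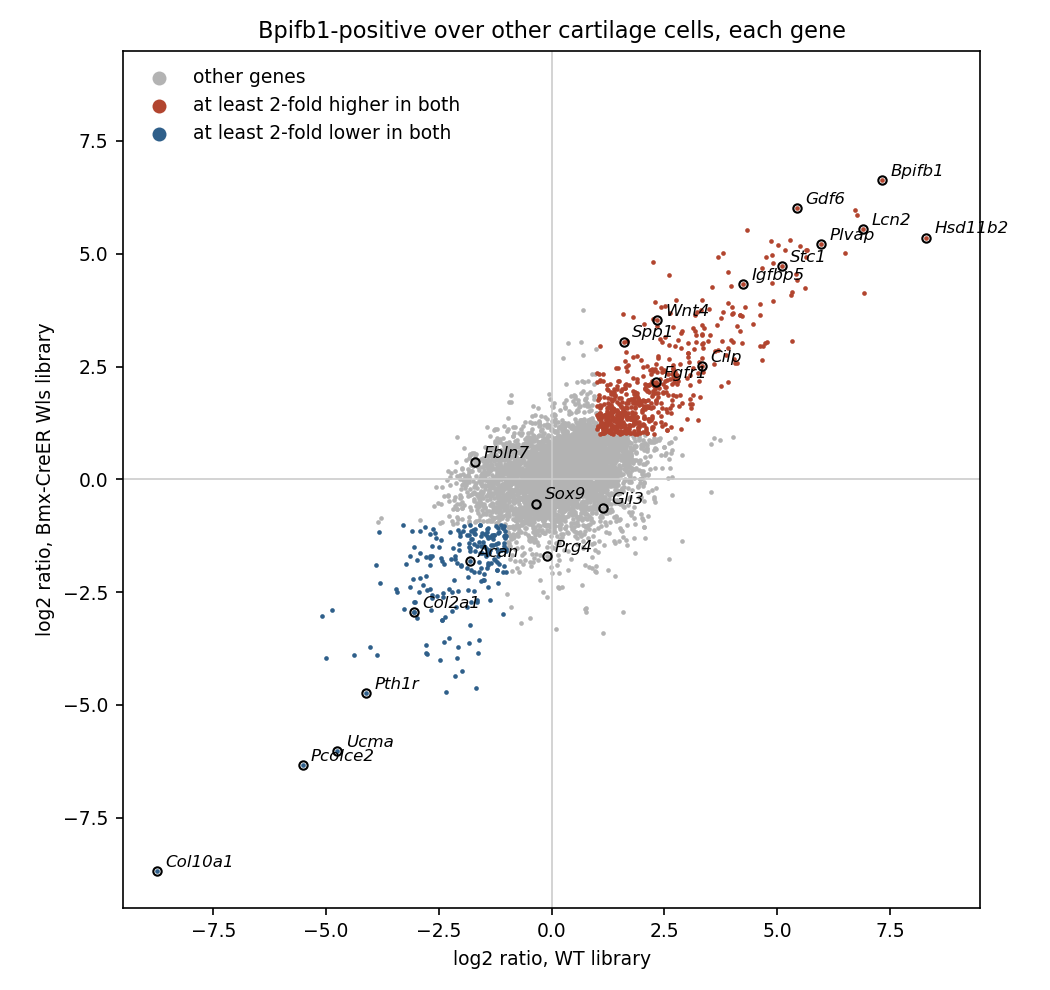
Log2 ratio of the level in Bpifb1-positive cells over that in other cartilage cells for each gene with UMIs in all 4 groups of cells, 6068 of the 6279 tested, in the WT library (x axis) and the Bmx-CreER Wls library (y axis). Red points are at least 2-fold higher and blue points at least 2-fold lower in both libraries; Hsd11b2 and Bpifb1 lie at the upper right, Col10a1 at the lower left, and Fbln7 and Gli3 on opposite sides of 0 in the 2 libraries.

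Among Wnt ligands, 4 were tested. Besides Wnt4, Wnt5a, a ligand of the non-canonical pathway, was higher, at 233 CPM (138 to 369) and 418 CPM (354 to 489.6) and ratios of 2.07 (1.22 to 3.3) in the WT and 5.01 (4.19 to 5.95) in the Bmx-CreER Wls library, the former falling to 1.47 with TMM factors. A Wnt5a UMI was present in 5 of 26 and 42 of 93 cells, against 19.9% and 12.5% of other cartilage cells. In the WT library the set thus did not carry it more often. Against the cells with at least 2 Epyc or 5 Col10a1 UMIs, Wnt5a was not 2-fold higher in both libraries, and 65.6% of the WT Col10a1 cells carried it. Wnt5b was lower, with 1 and 2 UMIs and a WT ratio of 0.189 that came to 0.59 with no condition on Epyc, and Wnt11 had ratios of 3.3 and 1.77. Wls itself (chromosome 3, 159839672 to 159938664) stood at 324 CPM (209.8 to 478) and 316 CPM (261 to 379), ratios of 3.29 (2.11 to 4.89) in the WT and 3.36 (2.74 to 4.07) in the Bmx-CreER Wls library. The exon deleted in the Bmx-CreER Wls line is not given in the sources used here and Cre acts in arterial endothelial cells, so that this 3′ count is no check of the label. Of 15 Wnt receptors and antagonists, Wls and the receptor Fzd9 were higher and the secreted antagonists Sfrp1, Sfrp5 and Wif1 lower, Wif1 at ratios of 0.127 and 0.118. Over all genes, 9.01% were higher and 3.77% lower. Of 4 canonical Wnt target genes tested, Ccnd1 was higher at 2.93 and 3.3 and Myc lower at 0.375 and 0.268, and Lef1 had 2 and 5 UMIs.

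Of the neurotrophin genes, 6 were tested. With Ngfr, the ligand genes Ntf3 and Bdnf were higher, Ntf3 with 4 and 19 UMIs at ratios of 45.3 (9.98 to 169) in the WT and 36.2 (17.6 to 75.2) in the Bmx-CreER Wls library, and Bdnf with 2 and 31 UMIs at ratios of 6.04 (0.699 to 23.8) in the WT and 23 (14 to 37.6) in the Bmx-CreER Wls library. Sort1, the sorting receptor that pairs with p75, was lower, at 0.236 (0.00596 to 1.32) in the WT and 0.179 (0.0488 to 0.462) in the Bmx-CreER Wls library. The high-affinity receptors Ntrk2 and Ntrk3 had no UMI in the Bpifb1-positive cells of either library. The WT intervals of Bdnf and Sort1 include a ratio of 1. Against the cells with at least 5 Col10a1 UMIs, Bdnf was not 2-fold higher in both libraries. Ngfr is a marker gene of the set, and over all genes 9.01% were higher and 3.77% lower.

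In the FGF list the receptor genes were split, and some of the genes induced by the pathway were higher. Fgfr1 stood at 1556 CPM (1289.9 to 1860.3) and 1907 CPM (1768 to 2055), ratios of 4.94 (4.08 to 5.94) in the WT and 4.44 (4.1 to 4.81) in the Bmx-CreER Wls library, while Fgfr3, the receptor of proliferating chondrocytes, was at 0.208 (0.0949 to 0.395) in the WT and 0.087 (0.0463 to 0.149) in the Bmx-CreER Wls library. The WT value of Fgfr3 rested on the condition on Epyc, as given above. The transcription factor Etv5 and the phosphatase Dusp6, both induced by FGF signalling in many tissues, were higher too, Etv5 at ratios of 10.2 and 8.08 and Dusp6 at ratios of 8.16 and 8.08. Spry4, a feedback inhibitor, had 4 and 19 UMIs at 3.81 and 3.18, and the ligand Fgf18 3 and 10 UMIs at 4.85 (0.971 to 14.9) in the WT and 2.0 (0.942 to 3.79) in the Bmx-CreER Wls library, intervals that both include 1. In all, 5 of 9 genes were higher and 1 lower, beside 9.01% and 3.77% of all genes.

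In the BMP and TGF-beta list, 5 of 21 genes were higher and 2 lower, beside 9.01% and 3.77% of all genes. Gdf6, a ligand of the forming joint, stood at 169 and 272 CPM, ratios of 43.6 (20.7 to 87.5) in the WT and 64.2 (44.9 to 92.9) in the Bmx-CreER Wls library, against 3.86 and 4.24 CPM in other cartilage cells. It was detected in 7 of 26 and 38 of 93 cells. Gdf10, a TGF-beta family ligand, had ratios of 5.8 (4.55 to 7.3) in the WT and 3.84 (3.35 to 4.39) in the Bmx-CreER Wls library, Tgfbr3 (betaglycan) 12.7 (9.07 to 17.5) in the WT and 10.8 (8.96 to 12.9) in the Bmx-CreER Wls library, Tgfbr2 2.99 and 2.88 (1.91 in the WT library after thinning to 1000 UMIs) and the BMP antagonist Chrd 4.38 and 3.02. Bmp7 and Tgfb2 were lower, Bmp7 with 0 UMIs in the WT cells and a ratio of 0.126 (0.026 to 0.371) in the Bmx-CreER Wls library.

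Igfbp5, an IGF-binding protein, was the most abundant of the higher genes named here, at 17762 CPM (16833 to 18728) and 22383 CPM (21899.9 to 22875) and ratios of 18.9 (17.9 to 20.1) in the WT and 20.05 (19.5 to 20.6) in the Bmx-CreER Wls library. It was detected in 25 of 26 and 90 of 93 cells, against 39.5% and 45.7% of other cartilage cells. Igfbp4 stood at 1932 and 2039 CPM, ratios of 11 (9.25 to 13.1) in the WT and 8.34 (7.68 to 9.05) in the Bmx-CreER Wls library, and Igfbp3 had 4 and 11 UMIs at 3.81 (1.02 to 10.1) in the WT and 2.25 (1.1 to 4.14) in the Bmx-CreER Wls library. The growth factor gene Igf2 had ratios of 1.09 and 1.23, with TMM factors 0.775 and 1.0, and the imprinted RNA H19 0.781 and 0.73. Of 9 genes of the IGF list tested, Igfbp3, Igfbp4 and Igfbp5 were higher and none was lower. Of 9 genes tested in the hedgehog and PTHrP list, Ihh and Pth1r were lower, both also counted in the prehypertrophic list. The coreceptor Boc was higher, at 2.42 and 2.1, and came to 1.01 and 1.89 with at least 3 Bpifb1 UMIs. Over all genes 9.01% were higher, near 1 of 9, and 3.77% lower.

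In the mineral handling list, Stc1, the pyrophosphate exporter gene Ank and the pyrophosphate-generating enzyme gene Enpp1 were higher and the calcium channel gene Trpv4 lower, of 8 tested. Over all genes, the shares were 9.01% and 3.77%. Ank stood at ratios of 4.63 (2.61 to 7.64) in the WT and 5.02 (3.94 to 6.33) in the Bmx-CreER Wls library and Enpp1 at 2.76 and 2.42, the latter at 1.96 and 1.97 with TMM factors. In the BPI fold family, Bpifb1 alone passed the filter on level. Its neighbour Bpifb5 had 3 and 8 UMIs in the cells and Bpifb4 1 and 22, with levels of 3.01 and 2.44 CPM and 0.143 and 0.992 CPM in other cartilage cells. These genes are relatives of Bpifb1 on the same chromosome, and reads may be shared between them.

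Of 8 small leucine-rich proteoglycan genes other than Epyc, 5 were lower and none higher, Lum at 0.118 (0.0243 to 0.344) in the WT and 0.452 (0.325 to 0.612) in the Bmx-CreER Wls library and Dcn at 0.0933 (0.00236 to 0.521) in the WT and 0.177 (0.0913 to 0.31) in the Bmx-CreER Wls library, while Bgn had ratios of 0.955 and 0.62 and Prelp of 1.0 and 1.26. Of 9 protease and inhibitor genes, none passed in either direction in both libraries, with Mmp14 at 1.9 and 2.23. Of 18 hypoxia and glycolysis genes, Ndrg1 was higher at 8.33 and 4.25, and Eno1, Pdk1, Bnip3 and P4ha2 were lower, Bnip3 at 0.118 and 0.215. Of 11 cell cycle genes, the G1 cyclin genes Ccnd1 and Ccnd2 were higher, Ccnd2 at 2.7 and 2.44 (with TMM factors 1.92 and 1.99), and none was lower, in cells whose mitosis genes the rule held down. Of 12 secretory pathway genes, 1 was higher, Creb3l1, at 4.03 and 2.83, and the chaperone Hspa5 stood at 1.72 and 2.23. Among all genes 9.01% were higher and 3.77% lower, so that 1 higher gene of 12 or of 18 was no more than that share.

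Genes of the perichondrium and of fibroblasts were not raised as a group: of 9, Pdgfra was higher at 2.11 and 3.15, with 1.7 in the WT library after thinning to 1000 UMIs, and Col1a2, Dcn, Lum and Postn were lower. Over all genes 9.01% were higher, near 1 of 9, and 3.77% lower. Col1a2 came to 0.946 and 0.573 when cells with 1 Bpifb1 UMI were included. Among 12 immediate early and stress genes that tissue dissociation can induce, 4 were higher and none lower, Egr1 at 2.23 and 2.04, Junb at 2.89 and 2.59, Ier3 at 2.48 and 2.34 and Dnaja1 at 2.82 and 2.65. The Egr1 values fell to 1.59 and 1.67 with TMM factors, and the part of dissociation in the other differences was not tested. Markers of other cell types were near 0: Schwann cell genes had 2 and 2 UMIs in sum over 6 genes, tendon genes 0 and 3 over 4, erythroid genes 0 and 1 over 8, and osteoclast genes 3 and 16 over 6. The osteoblast list had 250 and 1789 UMIs, of which Col1a1 gave 250 and 1782 (3241 and 4897 CPM, against 3910.2 and 5247 CPM in other cartilage cells), and the mural list 61 and 266, of which Cspg4 gave 61 and 265.

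The set was also compared with cells of single zones, taken among the other cartilage cells by 1 transcript each: 915 and 1028 cells with at least 2 Epyc UMIs, 865 and 1206 with at least 2 Ucma UMIs, and 227 and 227 with at least 5 Col10a1 UMIs. These groups overlap, the Epyc and Ucma groups by 502 and 564 cells. Against the Epyc cells, 828 of 6237 genes (13.3%) were 2-fold higher and 276 (4.43%) 2-fold lower in both libraries. Against the Ucma cells the counts were 696 (11.2%) and 231 (3.7%) of 6239. Against the Col10a1 cells they were 1005 (16.3%) and 332 (5.39%) of 6158. Stc1, Wnt4, Fgfr1 and Ngfr were higher against each of the 3. Stc1 stood at 10.5 and 19.6 CPM in Epyc, 34.5 and 66.4 CPM in Ucma and 3.28 and 13.6 CPM in Col10a1 cells. The joint surface genes set the groups apart: 5 of 8 (Prg4, Creb5, Cilp, Dkk3 and Sema3d) were higher against Epyc cells and against Col10a1 cells, and 3 (Creb5, Cilp and Sema3d) against Ucma cells. Spp1 was higher than in Epyc and Ucma cells, at 113 and 29.2 CPM and 23.1 and 4.95 CPM, but stood at 1029.7 and 844 CPM in Col10a1 cells, ratios of 0.718 and 1.7.

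Between the libraries, the set was a larger share of the Bmx-CreER Wls cells. It made up 0.453% (0.296 to 0.663) of the kept WT cells and 1.4% (1.14 to 1.72) of the kept Bmx-CreER Wls cells, a ratio of 3.10 (1.99 to 4.99). Cells passing the cartilage rule were also a larger share there, 53.7% against 36.6%. Over cells that passed the cartilage rule or were in the set, the shares were 1.24% (0.810 to 1.81) and 2.61% (2.11 to 3.18), a ratio of 2.11 (1.35 to 3.39). With 1 library each, the number of embryos, the dissection and the depletion cannot be told apart from the genotype.

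The levels of the marker genes were set side by side in the same way. The ratio of the Bmx-CreER Wls over the WT level was 0.941 (0.791 to 1.12) for Bpifb1, 0.865 (0.787 to 0.952) for Stc1 and 1.3 (1.0 to 1.71) for Ngfr, beside 1.53, 1.13 and 1.29 in other cartilage cells. For Wnt4 it was 2.56 (1.39 to 5.26), beside 1.12 in other cartilage cells. Igfbp5 had 1.26 (1.19 to 1.34) and Col2a1 1.0 (0.921 to 1.09). In the WT cells, the 20 CPM of the filter correspond to 1.54 UMIs, and in the Bmx-CreER Wls cells to 7.28. Of 6279 genes, 10.6% had a ratio of at least 2 and 12.9% of at most 0.5, against 0.701% and 0.0796% in other cartilage cells. The set held 77133 and 363885 UMIs in the WT and Bmx-CreER Wls libraries, and the other cartilage cells 6985814 and 11087547. At such unlike depth the shares of the 2 groups are not comparable. Of the 719 genes with at least 100 UMIs in the Bpifb1-positive cells, 20 (2.78%) and 6 (0.834%) passed, against 5 (0.695%) and 0 (0%) in other cartilage cells. The 100 UMIs were summed over both libraries, and most UMIs of the set came from the Bmx-CreER Wls library. This filter thus favours genes that are higher there, so that the 20 and 6 genes cannot be weighed against each other.

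Among those 719 genes, Dusp5, a phosphatase of nuclear ERK, had the highest ratio, 5.0 (2.37 to 12.6), from 90.8 to 453 CPM, followed by the transcription factor Cebpb at 3.99 (1.78 to 11.1), the fibulin gene Fbln7 at 3.72 (1.75 to 9.46), the secreted cartilage protein gene Mia at 3.09 (1.64 to 6.59) and the signal peptide peptidase gene H13 at 3.09 (1.58 to 6.9). In other cartilage cells these ratios were 1.45, 0.966, 0.879, 1.25 and 1.28. The lowest were Cyr61, a secreted matricellular protein, at 0.358 (0.256 to 0.504), Prg4 at 0.387 (0.298 to 0.505), the enkephalin precursor Penk at 0.408 (0.273 to 0.617), Cilp at 0.455 (0.386 to 0.539) and Prnp at 0.456 (0.298 to 0.712). Prg4 and Penk stood at 1.16 and 1.24 in other cartilage cells, Cyr61 at 0.656, Cilp at 0.797 and Prnp at 0.919. These 10 were picked as the most extreme ratios, so that their size is a description.

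**Figure D4:**
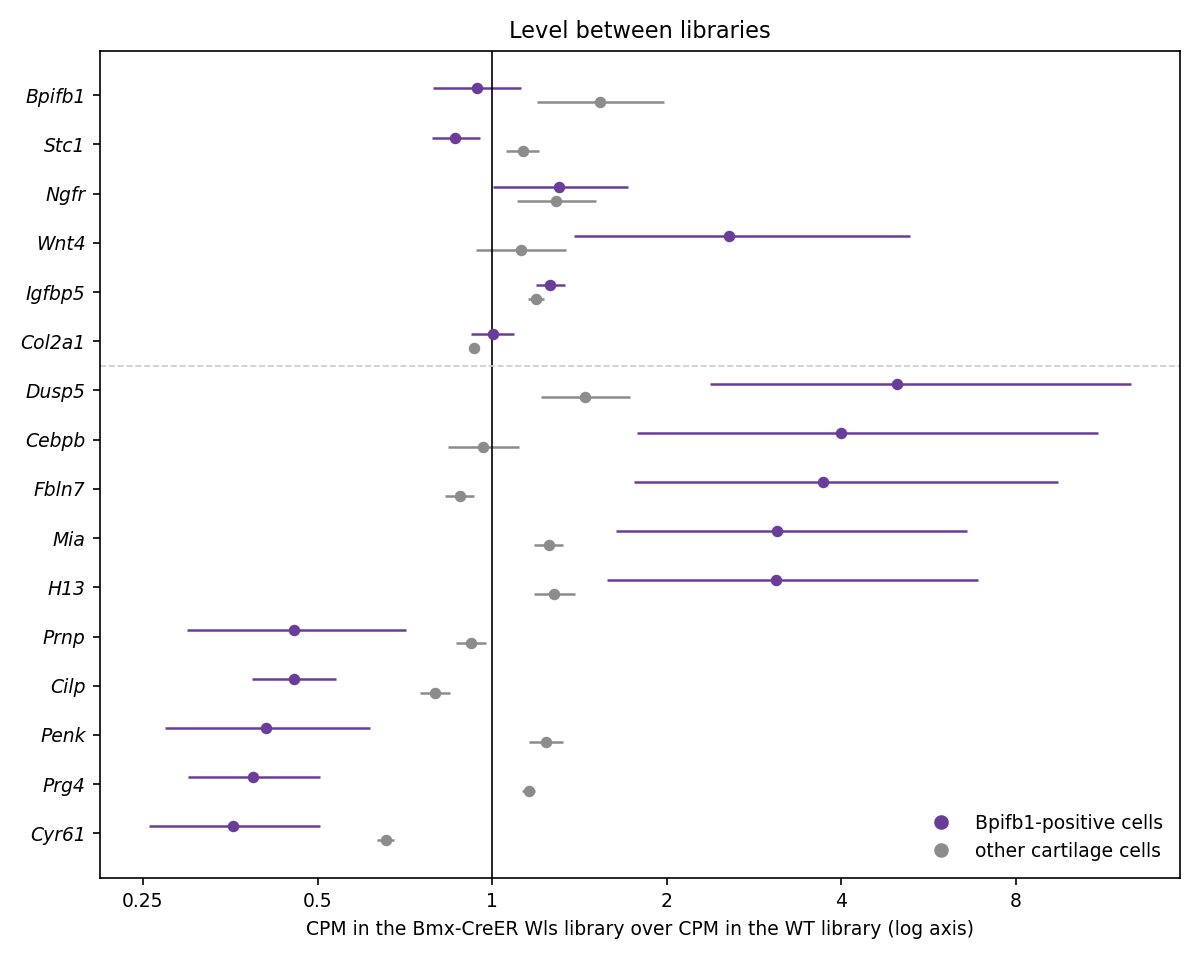
Ratio of the CPM in the Bmx-CreER Wls library over that in the WT library, on a log axis, for 16 genes in Bpifb1-positive cells (purple) and other cartilage cells (grey); bars are 95% intervals of counting error. The genes below the dashed line were picked for the highest and lowest ratios in Bpifb1-positive cells, from Dusp5 at 5.0 to Cyr61 at 0.358, and the vertical line marks a ratio of 1.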

How the data were processed

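Single cells of E18.5 femurs (1 library per genotype, no replicates and so no tests) were captured with BD Rhapsody. Per the labels and the study's methods, the tables deposited hold raw UMI counts, made with bcl2fastq 2.19.1.403, UMI-tools 1.0.1, STAR 2.7.1a (mm10) and featureCounts 1.6.4 of Subread; the strand setting of the counting is not given in the sources used here. The cell filter, as in the study, was 201 to 4999 genes and under 30% mitochondrial UMIs. Counts were summed over cells and divided by the summed UMIs. Intervals are exact Poisson (levels), Clopper-Pearson (shares) and conditional binomial (ratios) intervals at 95%. A gene or share at 0 was set to 3 counts for a bound. Genes with a mean of at least 20 CPM over the 4 values compared were tested for a 2-fold difference in each library; "higher" and "lower" mean this and no statistical test. The ratio intervals were checked on simulated Poisson counts, the model that they assume. These counts held no spread between cells, so the check does not extend to that spread.

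Named genes are the markers, the 15 highest and 10 lowest ratios in both libraries, up to 4 members of each of 32 gene lists with the most UMIs, and the 5 highest and 5 lowest ratios between libraries; some further list members were named after their values were seen, and a few genes are not reported here. The members and lists were chosen with earlier results of these data known. Of 22652 symbols, 21291 were found in the GENCODE annotation; positions refer to mm10, and promoter sequences to RefSeq. Alternatives, given in the closing section, covered thresholds, doublets, depth, totals, pooling and scaling. Tools were Python 3.11.15, scanpy 1.11.5 (Scrublet scores), scipy 1.17.1, pandas 2.3.3, numpy 2.4.6, matplotlib 3.10.9 and edgeR 4.0.16 (TMM factors only).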

Additional observations from a re-analysis of the deposited data

Results flagged for a closer look

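For 5 genes the Bpifb1-positive cells stood on opposite sides of the other cartilage cells in the 2 libraries. The difference was not tested, since each genotype has 1 library. Fbln7 had a ratio of 0.307 (0.123 to 0.633) in the WT and 1.3 (1.08 to 1.56) in the Bmx-CreER Wls library, on 7 and 123 UMIs. Mia had 0.527 (0.252 to 0.972) and 1.3 (1.1 to 1.54), on 10 and 146 UMIs. Fbln7 and Mia were named above for their extreme ratios between the libraries in these same cells, so that their change of side follows in part from that choice. The other 3 went the opposite way: the hedgehog coreceptor gene Gas1 had 2.03 (1.47 to 2.72) and 0.64 (0.522 to 0.776), the hedgehog effector gene Gli3 2.2 (1.16 to 3.8) and 0.641 (0.395 to 0.985), and the proteoglycan gene Fmod 1.45 (1.29 to 1.64) and 0.896 (0.85 to 0.945). Gli3 rested on 13 and 21 UMIs and Gas1 on 45 and 105.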

How the results depend on the processing

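With at least 1 Bpifb1 UMI the cells made up 0.819% and 2.02% of kept cells in the WT and Bmx-CreER Wls libraries, and 513 genes were at least 2-fold lower in the Bmx-CreER Wls library. With each cell thinned to 1000 UMIs, 115 genes were 2-fold lower than in other cartilage cells, and with no filter on mean CPM 936 were 2-fold higher. With TMM factors, added after seeing the data, 341 were higher and 429 lower. For these values the cause was not tested beyond what each alternative changes (more cells, fewer UMIs, more genes, another scaling). The other counts of genes stayed within 1.5 times, and the other shares of kept cells within their counting interval, under the alternatives run. Of the shares of cells with a UMI of a marker gene, 12 moved beyond their interval on thinning and 4 did not. Levels moved beyond their counting interval in 251 values and not in 1877, ratios to other cartilage cells in 490 and not in 2419, and ratios between libraries in 60 and not in 964. Of 1415 values of 62 named genes called against other cartilage cells, 1369 stayed past 2-fold and 46 did not, those of Boc, Ccnd2, Clu, Col11a1, Col1a2, Egr1, Enpp1, Fgfr3, Ibsp, Ogn, Pcolce2, Pdgfra, Sp7, Tgfbr2, Wnt4, Wnt5a and Wnt5b; none changed direction. In the WT library, 20 CPM correspond to 1.54 UMIs, so that differences in low genes were not detectable at this depth. No paired analysis was possible because each genotype has 1 library. Leaving out a replicate was not possible for the same reason.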
